A study of Mus musculus with 6 samples.

Results

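The retinoid genes described here are 9 genes that make, bind, break down or respond to retinoic acid: Aldh1a1, Aldh1a2, Aldh1a3, Crabp1, Crabp2, Dhrs3, Cyp26b1, Rarb and Stra6. Every probe set (a group of short array probes summarised to 1 value) annotated to exactly 1 of these symbols was taken, which gave 11 probe sets out of 45037 tested, or 9 of 18193 named genes. Aldh1a3 had 3 probe sets and the other 8 genes had 1 each. RNA came from the ventral midbrain of C57BL/6 mouse embryos of mixed sex at embryonic day 10.5, cut into the floor plate, the strip at the ventral midline, and a ventral lateral piece that lies next to it without overlap. Each region had 3 samples, and every sample combined tissue of 6 embryos. No mutant or treatment is named in the labels. They do not say whether floor plate and ventral lateral pools shared embryos, so the main fit treats the samples as unpaired. Its p-values set the region difference against the spread between these pools, which limma moderates over all probe sets.

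Retinoic acid is a small lipid signal made from vitamin A. Stra6 takes up retinol, retinol dehydrogenases oxidise it to retinaldehyde, and the Aldh1a enzymes oxidise retinaldehyde to retinoic acid. Dhrs3 works the other way, reducing retinaldehyde back to retinol, and the Cyp26 enzymes break retinoic acid down. Crabp proteins carry it inside the cell, and retinoic acid receptors such as Rarb switch on target genes from hexamer repeats in DNA. In the ventral midbrain Aldh1a1 is best known as an early marker of dopaminergic progenitors and of a subset of dopaminergic neurons.

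The deposited numbers are centred: for each probe set the median of the 6 arrays is 0. They are read here as log2 ratios that increase with RNA, although neither the log base nor the direction is stated. They hold no level, so genes cannot be ranked by abundance and no gene can be called absent. With 6 arrays the median lies midway between the third and the fourth value, so in a gene whose groups do not overlap the innermost floor plate value and the innermost ventral lateral value are mirror images of each other by construction. The array medians lay between -0.0031 and 0.0045. Genes of known region were read as a check of the labels. Foxa2 (log2 difference 1.76, limma adjusted p = 0.0132) and Lmx1a (3.71, adjusted p = 0.0003) were higher in floor plate, and Nkx2-2 (-2.11, adjusted p = 0.0057), Dbx1 (-3.98, adjusted p = 0.000943) and Gad1 (-4.56, adjusted p = 6.04e-05) were lower there. Shh missed the threshold on both probe sets, at 1.76 (adjusted p = 0.0734) and 0.16 (adjusted p = 0.56). Of 15 floor plate marker probe sets 13 were higher, and of 15 ventral lateral ones 10 were lower. Ventral lateral replicate 2 had the weakest contrast, with a mean over the floor plate markers of -0.87 against -1.59 in replicate 1 and -1.96 in replicate 3. All 8 alar midbrain probe sets, a check for dorsal tissue, were separated toward ventral lateral, 7 of them past the threshold. In dissected tissue fewer cells of a type and less RNA per cell cannot be told apart.

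The retinoid genes split into opposite directions. The retinoic acid-making enzyme gene Aldh1a1 and the retinaldehyde reductase gene Dhrs3 were higher in floor plate, while both genes for cellular retinoic acid-binding proteins, Crabp1 and Crabp2, were lower. The other synthesis enzymes, Aldh1a2 and Aldh1a3, the breakdown enzyme gene Cyp26b1, the receptor gene Rarb and the uptake receptor gene Stra6 did not pass the test. Thus 2 of 11 probe sets were higher and 2 were lower (limma, Benjamini-Hochberg adjusted p under 0.05 over all 45037 probe sets), where 2.70% of all probe sets tested were higher and 2.01% lower. The median difference over the 11 was -0.047, against -0.004 over all probe sets, and the median size regardless of sign was 0.45 against 0.13. The 3 floor plate values lay above all 3 ventral lateral values for 3 of the 11 (Aldh1a1, Dhrs3, Rarb) and below them for 3 (Crabp1, Crabp2 and the Aldh1a3 probe set 1427395_a_at), where all probe sets gave 11.5% and 11.0%. Since the genes were chosen with results of these data known, these counts describe them and are no test of the family.

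**Figure D1:**
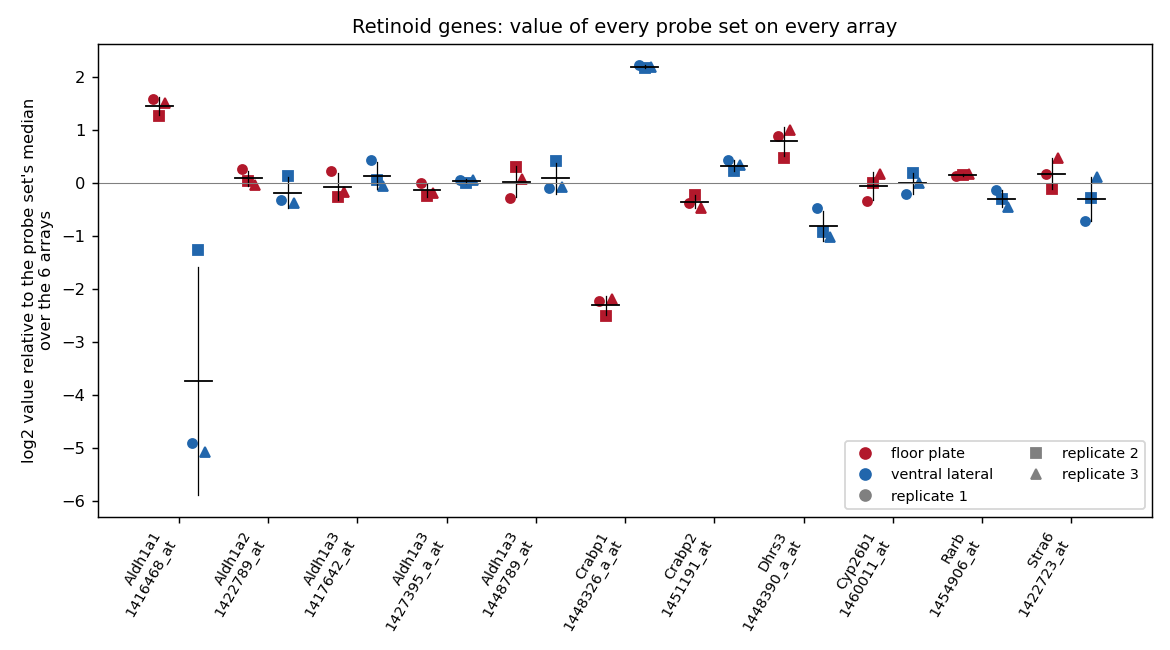
Log2 value relative to the probe set's median over the 6 arrays (vertical axis) for each of the 11 probe sets (horizontal axis). Red marks are floor plate and blue marks ventral lateral arrays, the marker shape is the replicate number, and the black bars show mean and SD (n = 3); Aldh1a1 and Crabp1 stand far from the rest, and ventral lateral replicate 2 sits at -1.26 for Aldh1a1, away from -4.90 and -5.07.

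Among the synthesis enzymes Aldh1a1 (probe set 1416468_at) had by far the widest range. Its log2 values were 1.59, 1.26 and 1.51 in floor plate replicates 1, 2 and 3, and -4.90, -1.26 and -5.07 in ventral lateral replicates 1, 2 and 3. The floor plate samples were close together and all high, while 2 ventral lateral samples were very low and replicate 2 was intermediate, without reaching the floor plate. Floor plate averaged 1.45 ± 0.17 (SD, n = 3) against -3.74 ± 2.15 (SD, n = 3) for ventral lateral tissue, a log2 difference of 5.20 (SE 0.91, 95% interval 3.08 to 7.31, limma adjusted p = 0.0188), or 36.6-fold. By size this was number 2 of all 45037 probe sets. Ventral lateral replicate 2 sets the spread: without it the log2 difference was 6.44 (SE 0.14, adjusted p = 1.43e-05), and with it but without any other sample the difference was 4.53 to 5.29 and the call was lost (adjusted p of 0.0516 to 0.0831). The same replicate also had the highest mean of the floor plate markers among ventral lateral samples, as given above, and the part of floor plate tissue in this value was not tested.

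Aldh1a2, the main retinaldehyde dehydrogenase of early embryonic mesoderm and meninges, differed little. Its values were 0.26, 0.035 and -0.035 in floor plate and -0.32, 0.14 and -0.37 in ventral lateral samples (probe set 1422789_at), and the groups overlapped through ventral lateral replicate 2. The log2 difference was 0.27 (95% interval -0.10 to 0.64, limma adjusted p = 0.479). Mesenchyme and meninges markers differed between replicates rather than regions, with means over 22 probe sets of -0.36, 0.34 and -0.036 in floor plate and -0.30, 0.30 and 0.034 in ventral lateral replicates 1, 2 and 3. Of these 22 probe sets 1 was called, Twist1, which was higher in floor plate (log2 difference 2.11, adjusted p = 0.00724). Their part in the Aldh1a2 values was not tested.

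Aldh1a3, another enzyme of the same family known from eye and nasal tissue, was measured by 3 probe sets and none passed. On 1417642_at the values were 0.22, -0.27 and -0.16 in floor plate and 0.43, 0.05 and -0.05 in ventral lateral samples. On 1427395_a_at they were -0.0025, -0.25 and -0.18 against 0.067, 0.0025 and 0.052, so that the groups were separated by a gap of only 0.005. On 1448789_at they were -0.29, 0.30 and 0.074 against -0.085, 0.42 and -0.074. These values spread as widely within a region as between regions on the first and the last of these probe sets. The log2 differences were -0.21, -0.19 and -0.058, with 95% intervals of -0.61 to 0.19, -0.42 to 0.049 and -0.51 to 0.39 (limma adjusted p of 0.433 to 0.927). Each of these intervals lies far below the Aldh1a1 difference of 5.20, as does that of Aldh1a2, but the values carry no level, so they do not say which of the enzymes was most abundant.

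Of the genes that lower retinoic acid, the reductase gene Dhrs3 was higher in floor plate. Its values were 0.88, 0.48 and 1.0 in floor plate and -0.48, -0.93 and -1.01 in ventral lateral samples (probe set 1448390_a_at). Every floor plate sample was above every ventral lateral one, with a gap of 0.96 between the groups. The mean was 0.79 ± 0.27 (SD, n = 3) against -0.81 ± 0.29 (SD, n = 3), a log2 difference of 1.60 (SE 0.19, limma adjusted p = 0.00326) or 3.03-fold. The call held without any 1 sample, with differences of 1.49 to 1.76. Dhrs3 is itself switched on by retinoic acid in many tissues, as a feedback on its supply.

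Cyp26b1, which oxidises retinoic acid to inactive products, did not follow Dhrs3. Its values were -0.34, -0.0059 and 0.18 in floor plate and -0.21, 0.19 and 0.0059 in ventral lateral samples (probe set 1460011_at), and the groups overlapped fully. The log2 difference was -0.047 (95% interval -0.42 to 0.33, limma adjusted p = 0.931), an interval that ends far below the Dhrs3 difference of 1.60.

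**Figure D2:**
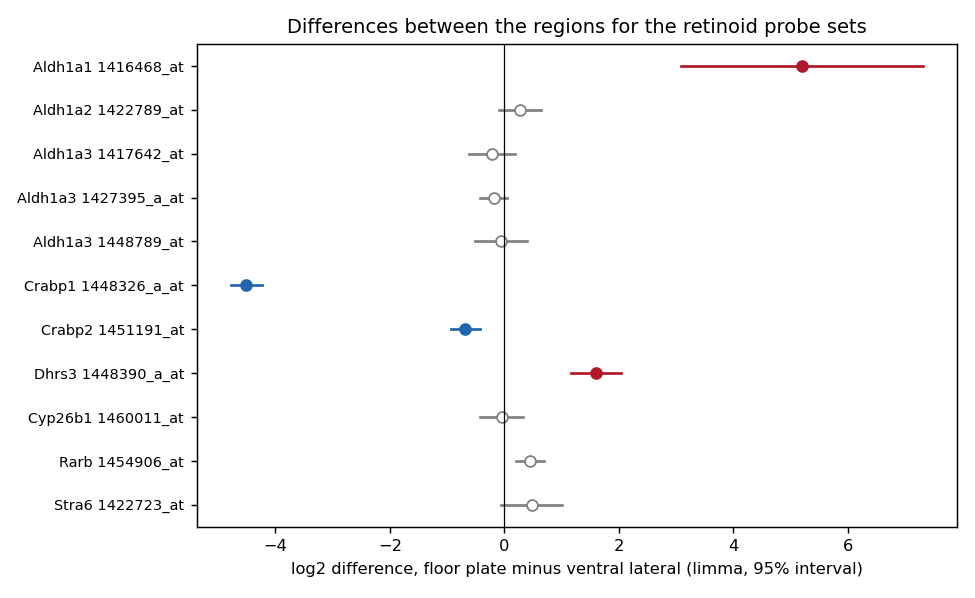
Log2 difference, floor plate minus ventral lateral (horizontal axis), with its 95% interval from limma for each probe set (vertical axis, n = 3 per region). Filled red points passed as higher in floor plate, filled blue points as lower, and open grey points did not pass; the interval of Aldh1a1, 3.08 to 7.31, is the widest and that of Crabp1, -4.77 to -4.24, is narrow.

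The binding protein genes were both lower in floor plate, by very different amounts. Crabp1 (probe set 1448326_a_at) had values of -2.23, -2.51 and -2.18 in floor plate and 2.22, 2.18 and 2.20 in ventral lateral samples. The ventral lateral samples were nearly identical, and a gap of 4.36 lay between the regions. The mean was -2.31 ± 0.18 (SD, n = 3) against 2.20 ± 0.020 (SD, n = 3), a log2 difference of -4.51 (SE 0.11, limma adjusted p = 1.94e-05), which is 22.8-fold lower in floor plate. It held rank 8 from the lowest among all 45037 probe sets. Leaving out any 1 sample gave -4.57 to -4.41 and kept the call. Crabp1 showed no step in ventral lateral replicate 2, where Aldh1a1 did. Its value there, 2.18, mirrors the -2.18 of floor plate replicate 3 by construction. The mean of ventral lateral replicate 2 over the 15 ventral lateral markers was 0.87, against 1.58 and 1.07 in replicates 1 and 3. The mean of the alar midbrain markers was even across those replicates, at 1.10, 1.10 and 1.19, but its parts were not. Replicate 2 was lowest on every probe set of Pax3, Pax7 and Mab21l2 (Mab21l2 2.43, 1.87 and 2.13). It was highest on both of Zic1 (1439627_at 0.28, 1.74 and 1.22). Of 11 neural crest probe sets the 3 of Tfap2a were lower in floor plate (-3.95, -2.71 and -2.21), where 2.01% of all probe sets were. The other 8, of Sox10, Foxd3 and Ets1, were not called, with differences of -0.48 to 0.12. Crabp1 is known from early neurons, dorsal brain and neural crest, and the part of such cells in its value was not tested.

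Crabp2, which hands retinoic acid to its nuclear receptor, fell less. Its values were -0.37, -0.22 and -0.47 in floor plate and 0.43, 0.22 and 0.34 in ventral lateral samples (probe set 1451191_at), with no overlap. The mean was -0.35 ± 0.12 (SD, n = 3) against 0.33 ± 0.10 (SD, n = 3), a log2 difference of -0.69 (SE 0.11, limma adjusted p = 0.012) or 1.61-fold lower. The call was narrowly lost without floor plate replicate 1 (adjusted p = 0.0503) and without ventral lateral replicate 1 (0.0501), at differences of -0.68 and -0.63. Of the pan-neuronal markers 3 of 15 probe sets (20%) were lower in floor plate as well, where 2.01% of all probe sets were. Separated downward were 60% of them, beside 11.0% of all probe sets. Their differences ran from -1.05 to 0.055 with a median of -0.44, and their part in the Crabp2 values was not tested.

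Rarb, a retinoic acid receptor gene and a classic direct target of the signal, was slightly higher in floor plate but missed the threshold. Its values were 0.13, 0.15 and 0.17 in floor plate and -0.13, -0.31 and -0.45 in ventral lateral samples (probe set 1454906_at). The floor plate samples were almost equal and all above the ventral lateral ones, with a gap of 0.27. The log2 difference was 0.45 (SE 0.11, 95% interval 0.20 to 0.70, limma adjusted p = 0.0649), or 1.36-fold, while the p before adjustment was 0.00357. Stra6, the membrane receptor that takes up retinol from its plasma carrier, was at 0.17, -0.11 and 0.48 in floor plate and -0.72, -0.29 and 0.11 in ventral lateral samples (probe set 1422723_at). Floor plate replicate 2 lay below ventral lateral replicate 3, so the groups overlapped. The log2 difference was 0.48 (95% interval -0.053 to 1.01, limma adjusted p = 0.359), a size near that of Rarb with a larger error (SE 0.23).

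The sequences before the start of the genes that stand out show how the known receptor element of Rarb looks beside the promoters of Aldh1a1 and Crabp1, the genes with the largest differences. RefSeq windows (GRCm38.p6) were found for 7 of the 9 genes, 13 windows in all, and the 250 bases before each annotated start were searched on both strands for the hexamers AGGTCA and AGTTCA and also GGGTCA and GGTTCA. Direct repeats of these hexamers with 1, 2 or 5 bases (N) between them were counted as well. The sequences run 5′ to 3′ on the gene's strand up to the base before the start, and capitals mark the hexamers on either strand. Rarb lies on the minus strand at chr14:16575477-16575726, Aldh1a1 on the plus strand at chr19:20601718-20601967 (the more downstream of its 2 starts) and Crabp1 on the plus strand at chr9:54764498-54764747.
Rarb: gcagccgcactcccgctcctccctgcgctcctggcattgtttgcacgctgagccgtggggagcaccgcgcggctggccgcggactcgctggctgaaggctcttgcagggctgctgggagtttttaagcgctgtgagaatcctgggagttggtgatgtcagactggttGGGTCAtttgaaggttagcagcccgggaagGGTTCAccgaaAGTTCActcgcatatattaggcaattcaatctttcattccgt
Aldh1a1: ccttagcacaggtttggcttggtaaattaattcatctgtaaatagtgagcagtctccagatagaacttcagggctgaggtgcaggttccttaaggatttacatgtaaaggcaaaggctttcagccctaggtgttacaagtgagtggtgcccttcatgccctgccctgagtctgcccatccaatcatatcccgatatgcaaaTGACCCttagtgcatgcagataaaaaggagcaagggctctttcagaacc
Crabp1: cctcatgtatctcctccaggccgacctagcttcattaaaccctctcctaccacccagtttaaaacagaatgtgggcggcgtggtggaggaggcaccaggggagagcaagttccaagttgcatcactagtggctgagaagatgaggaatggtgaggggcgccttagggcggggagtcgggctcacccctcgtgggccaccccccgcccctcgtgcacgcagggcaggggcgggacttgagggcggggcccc

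Of the 13 windows 1 held such a direct repeat, that of Rarb. It pairs GGTTCA and AGTTCA across 5 bases, from position -53 to -37, and a further GGGTCA lies at -83, so the window holds 3 hexamers, 2 of them in the repeat. A repeat with 5 bases between was in 0.0883% of 32851 windows of the same length, any of the 3 spacings in 0.426%, and 3 or more hexamers in 1.84%. The Aldh1a1 window held 1 hexamer, GGGTCA on the minus strand at -49, as did at least 1 hexamer in 38.6% of all windows. None was in the Crabp1 window, the 3 windows of Dhrs3, the 4 of Stra6, the 1 each of Aldh1a2 and Cyp26b1, or the upstream window of Aldh1a1. A match describes letters only, and the lack of a match says only that these letters are not in these bases.

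The rest of the pathway was read from a list of 69 other retinoid genes, of which 59 had singly named probe sets, 117 in all. Of these, 6 probe sets were higher in floor plate and 3 lower (limma, adjusted p under 0.05). These are 5.13% and 2.56%, against 2.70% and 2.01% of all probe sets. The higher calls made up 5.56% of probe sets in uptake and storage, 8.33% in receptors and carriers, 6.67% in coregulators and 6.98% in response genes. The other roles had none. An unadjusted p under 0.05 was found for 28.2% of the list, against 16.5% of all probe sets. The median difference was 0.054. The groups were separated upward for 23.1% of these probe sets and downward for 12%, beside 11.5% and 11.0% overall. The 6 higher probe sets belonged to 5 genes and all 3 lower ones to Meis2. Leaving out floor plate replicate 1 cut the higher calls to 2, and leaving out floor plate replicate 2 cut them to 3.

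In uptake and storage, 1 of 18 probe sets passed. This was Rbp4, the plasma carrier of retinol that docks on Stra6, at 1.55, 1.02 and 1.36 in floor plate and -1.31, -1.02 and -1.02 in ventral lateral samples. The regions were far apart (log2 difference 2.42, SE 0.16, limma adjusted p = 0.000321, 5.36-fold), and the call held without any 1 sample. Its partner in plasma, Ttr, had all 4 probe sets separated in the same direction, with differences of 0.38 to 1.09, but none passed (adjusted p of 0.0909 to 0.16). On 1454608_x_at, 1455913_x_at and 1459737_s_at floor plate replicate 3 was at only 0.092, 0.085 and 0.046, well below replicates 1 and 2. On the first of these replicates 1 and 2 were at 1.41 and 1.31. The endings _x_at and _s_at mark probes that may also match other transcripts. Ttr was named after its values were seen.

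Of the retinol and retinal oxidoreductases none of 23 probe sets passed. An unadjusted p under 0.05 was found for 3 of them, or 13%, against 16.5% of all probe sets. That share was 33.3% in uptake and storage, 16.7% in receptors and carriers, 40% in coregulators and 37.2% in response genes. Rdh10, the retinol dehydrogenase that embryos depend on, is named here for that role. On probe set 1460632_at it was at 0.40, 0.16 and 0.19 in floor plate and -0.91, -0.28 and -0.16 in ventral lateral samples, and on 1426968_a_at the difference was 0.40. The regions did not overlap on either probe set, yet neither passed (log2 difference 0.70, limma adjusted p = 0.109, and 0.40, adjusted p = 0.138). None of 6 probe sets of other synthesis and breakdown genes passed, and none had an unadjusted p under 0.05. Among them Cyp26a1, also named for its role, a breakdown enzyme gene strongly driven by retinoic acid, had a difference of -0.16 (SE 0.14, adjusted p = 0.677).

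Of 12 probe sets for receptors and carriers 1 passed, Rxrg, a partner receptor of the retinoic acid receptors. It was at 0.29, 0.33 and 0.49 in floor plate and -0.29, -0.93 and -0.43 in ventral lateral samples (log2 difference 0.92, SE 0.17, limma adjusted p = 0.0238). It passed in 2 of 6 fits without 1 sample, being lost when any of the 3 floor plate samples was left out, and when ventral lateral replicate 3 was (adjusted p up to 0.0838). Rara, the broadly active receptor gene and likewise named for its role, gave 0.12 (adjusted p = 0.643). Among coregulators 1 of 15 probe sets passed, 1 of the 6 of Nrip1, a corepressor induced by retinoic acid (0.54, adjusted p = 0.0286); it passed in 1 of 6 fits without 1 sample, the exception being ventral lateral replicate 3, and had an adjusted p of 0.0716 with the replicate number as a block.

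Response genes went both ways, with 3 of 43 probe sets higher and 3 lower, or 6.98% each, against 2.70% and 2.01% of all probe sets. Rarres1, a retinoid-induced gene, was at 1.0, 0.74 and 0.88 in floor plate and -1.0, -0.74 and -0.88 in ventral lateral samples (log2 difference 1.75, SE 0.11, limma adjusted p = 0.000321), and passed without any 1 sample. Both probe sets of the zinc finger gene Zfp503 were higher, by 1.20 (adjusted p = 0.0124) and 1.12 (adjusted p = 0.0201). Zfp503 passed in 5 and in 2 of 6 fits without 1 sample; without floor plate replicate 1 neither did. The homeobox gene Meis2 had 3 of 4 probe sets lower. On 1417129_a_at it was at -0.61, -0.66 and -0.99 in floor plate and 0.62, 0.67 and 0.61 in ventral lateral samples (log2 difference -1.39, SE 0.12, adjusted p = 0.000933), and the others gave -1.13 (adjusted p = 0.0041), -0.63 (adjusted p = 0.0253) and -1.37 (adjusted p = 0.112). The -1.13 and the -0.63 came from probe sets ending in _s_at and _x_at, endings that mark probes which may also match other transcripts. The -1.13 passed in all 6 fits without 1 sample. The -0.63 passed in 1 of 6 (the exception being ventral lateral replicate 2), and had a limma adjusted p of 0.0669 with the block.

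**Figure D3:**
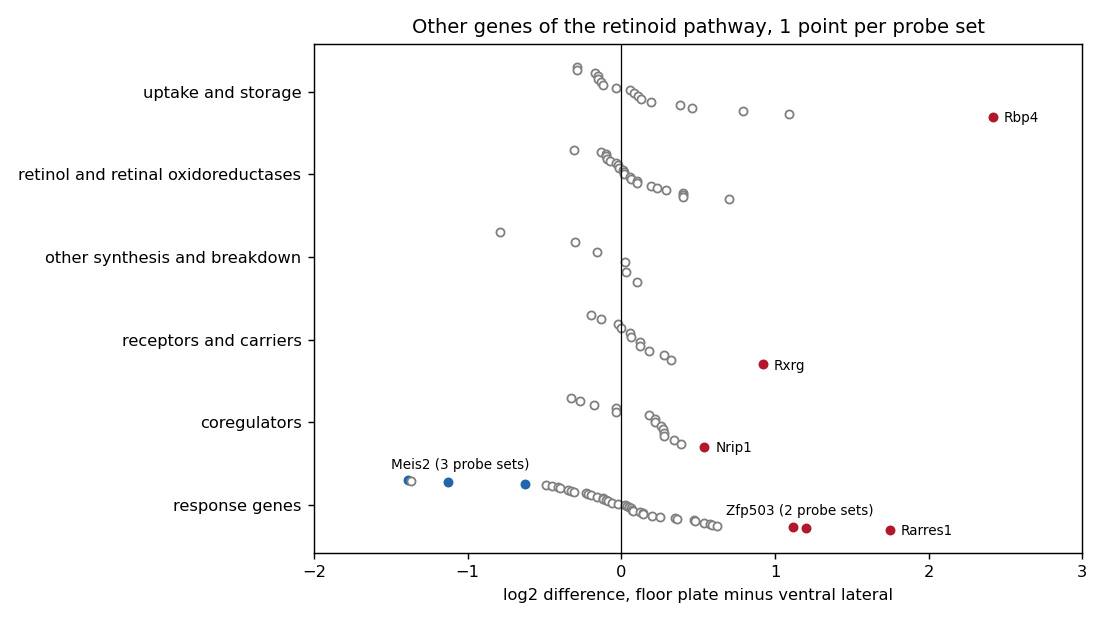
Log2 difference, floor plate minus ventral lateral (horizontal axis), for 117 probe sets of 59 other retinoid genes grouped by role (vertical axis), each point being 1 probe set. Filled red points passed as higher in floor plate and filled blue points as lower; most open points lie near 0, and Rbp4 at 2.42 is the farthest out.

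The genes whose values on the 6 arrays came closest to those of the 4 called retinoid genes were found by root mean square difference, as a description over 6 arrays that share the region contrast. Nearest to Aldh1a1 were the Wnt enhancer gene Rspo2 (0.61), the Wnt modulator gene Dkk2 (0.62) and the floor plate protease gene Corin (0.77). All 3 had the same step, with ventral lateral replicate 2 at -1.29, -1.22 and -2.20 and the other ventral lateral samples between -4.92 and -3.67. Since these genes were chosen for closeness to the Aldh1a1 values, a shared step follows from the choice and is no separate support for it. Nearest to Crabp1 were the AP-2 factor gene Tfap2b, the gene Mab21l2 of alar midbrain and the axon guidance receptor gene Robo3, each at 0.26, with log2 differences of -4.65, -4.17 and -4.31. Nearest to Dhrs3 were Mlc1 (0.11), Ccn2 (0.15) and Cdkl4 (0.16), with differences of 1.48 to 1.71. Nearest to Crabp2 were Arrdc2 (0.036), Myl3 (0.052) and Reep1 (0.053), with differences of -0.65 to -0.62.

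**Figure D4:**
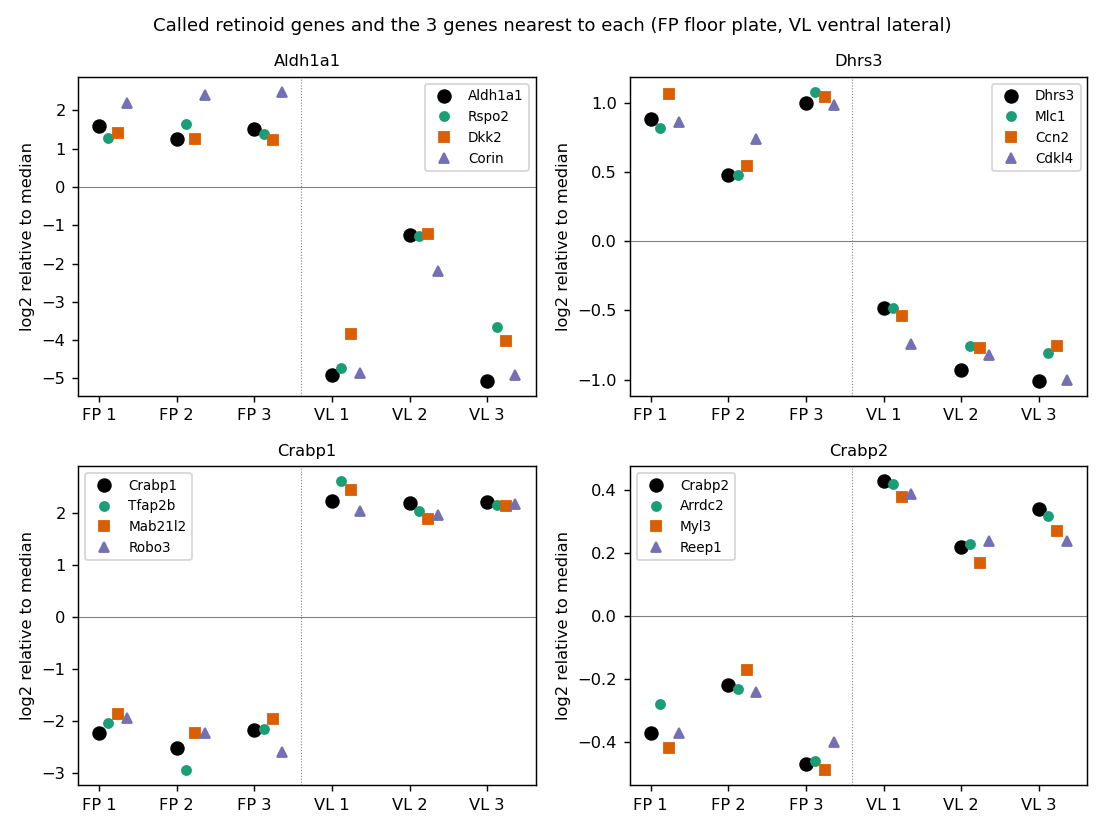
Log2 value relative to the median (vertical axis) on each of the 6 arrays (horizontal axis; FP floor plate, VL ventral lateral) for the 4 called retinoid genes (black) and the 3 genes nearest to each (coloured markers, shifted sideways for legibility). In all 4 genes of the Aldh1a1 panel ventral lateral replicate 2 stands well above the other ventral lateral values. In the Crabp1 panel it is the lowest ventral lateral value of each gene, and all ventral lateral values lie between 1.87 and 2.61. The nearest genes were chosen for closeness on these same arrays.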

How the data were processed

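Total RNA (5 ng per sample) was amplified and biotin-labelled with the NuGEN Ovation V2 system and hybridised to Affymetrix arrays, per the labels' protocols. The deposited values, read here as log2, came from RMA, per the submitters' processing notes. No version is named there. All 45101 probe sets had a median over the 6 arrays within 1e-05 of 0, so the values are centred log ratios; no source used here states the centring step, the base of the log or its direction. No scanner files were used here. Names came from GEO's platform annotation: after 64 controls were left out, 34945 probe sets had 1 symbol, 932 several and 9160 none. The RefSeq table (GRCm38.p6) held the Entrez identifiers of 34741 of the first kind, and 0 names changed. Floor plate minus ventral lateral was fitted for 45037 probe sets with lmFit and eBayes (limma 3.58.1 under R 4.3.3); p-values were adjusted over all of them by Benjamini-Hochberg, with a threshold of 0.05. No filter on low values was applied; since the values carry no level, the alternative filter used the variance. Other alternatives changed the normalization, centring, array weights, moderation, threshold, probe sets, samples or block. The fit was tested on simulated data. The number of arrays limits the precision; the median SE was 0.13. Named genes were all members, called probe sets of the wider list (at most 4 per role and direction), 6 region markers and 3 nearest genes. Exceptions are Rdh10, Cyp26a1 and Rara, named for their roles. Ttr, the called markers Twist1, Tfap2a and Cldn5, and the markers Pax3, Pax7, Zic1, Sox10, Foxd3 and Ets1 were named after their values were seen. Notochord markers had no singly named probe set here; endothelium (1 of 8 probe sets lower, Cldn5) and blood (0 of 10 called by limma, 0 with an unadjusted p under 0.05) were the other marker lists. The members and lists were chosen with earlier results of these data known. Python 3.11.15, pandas 2.3.3 and matplotlib 3.10.9 were used for tables and plots.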

Additional observations from a re-analysis of the deposited data

How the results depend on the processing

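Crabp1 and Dhrs3 kept their direction and side of the threshold under all alternatives run (differences of -4.57 to -4.34 and 1.49 to 1.76), as did Aldh1a2, Stra6 and the first 2 Aldh1a3 probe sets, which passed under none. At an adjusted p under 0.01, Aldh1a1 (5.20) and Crabp2 (-0.69) no longer passed, leaving 1 member higher and 1 lower, with 2 of the wider list higher. Rarb (0.45) passed at a threshold of 0.10 and in the fit of gene means (0.45, limma adjusted p = 0.0309). It did not pass in the fit of 1 probe set per gene (adjusted p = 0.0656). Rarb has 1 probe set, so its own values were the same in both fits, which differ in the other genes fitted with it. Its adjusted p was 0.0309 to 0.188 over all alternatives. Without 1 sample at a time, Aldh1a1 ranged from 4.53 to 6.44, Crabp2 from -0.75 to -0.63, the Aldh1a3 probe set 1448789_at from -0.19 to 0.11 (0.10 without floor plate replicate 1, 0.11 without ventral lateral replicate 2) and Cyp26b1 from -0.16 to 0.094 (0.094 and 0.050 without the same samples). These sign changes of Aldh1a3 and Cyp26b1 are of uncalled values. Members called numbered 1 to 2 higher and 1 to 2 lower, and those of the wider list 2 to 5 higher, lowest without floor plate replicate 1, and 2 to 3 lower. In the upper part of the variance, which selects on the spread itself and gives p-values that carry no weight, the wider list had 10 higher and 5 lower; without probe sets ending in _x_at or _s_at 1 was lower, since the others were left out. The cause of the remaining changes was not tested. Whether the replicate numbers pair the samples is not known from the labels: deviations of same-numbered samples correlated at 0.00964, 0.125 and 0.114, so not every pair was over 0.1, and not every sample correlated best with its own number, although replicates 2 and 3 gave the highest values and the mesenchyme and meninges means ran alike by number in both regions. With the replicate block, 2 members were higher and 2 lower as before (Crabp2 -0.69, adjusted p = 0.0379), and 5 and 2 of the wider list. The number of arrays limits what could be seen.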

Other observations

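The spread between replicates varied widely among the retinoid probe sets. Their median ventral lateral SD was 0.25, against 0.13 over all probe sets, and their median floor plate SD was 0.18, against 0.15. The SD of Aldh1a1 among ventral lateral samples, 2.15, was exceeded by 4 of the 45037 probe sets, whereas 2.47% of probe sets had a ventral lateral SD below the 0.020 of Crabp1. For Rarb 1.77% of probe sets had a floor plate SD below its 0.019. The ventral lateral SD of Stra6, 0.41, was above that of 96.6% of all probe sets, and that of Aldh1a3 on probe set 1427395_a_at, 0.034, was above that of 6.28%.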
